A study of Mus musculus with 23 samples.

Results

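The BTG/TOB antiproliferative genes Btg1, Btg2, Btg3 and Tob1 were followed in the nucleus accumbens of mice given methamphetamine (MA). These are 4 of the 8949 genes that the array's annotation lists, and they lie on 5 of the 12422 probe sets that are not controls. Btg2 was chosen because its signal was higher after MA in both mouse lines, so its MA response is given as a description with no test, and the others were included to see whether the family followed. Btg1 and Btg2 have 1 probe set each and Tob1 has 2. Btg3 is listed only on a probe set that it shares with Gm7334, a transcribed pseudogene in RefSeq, so values of that probe set are called Btg3/Gm7334 and cannot be assigned to Btg3 alone.

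The proteins of this family share a BTG domain near the amino terminus, through which they bind the CNOT7 and CNOT8 deadenylases of the CCR4-NOT complex, and several of them speed the shortening of poly(A) tails and slow cell division when overproduced. Btg2 is a classic immediate early gene and a target of p53, Btg1 is associated with quiescent cells, and Tob1 also binds the poly(A)-binding protein. In neurons, where division has ceased, Btg2 belongs to the genes that synaptic activity and cyclic AMP signalling switch on within the hour.

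The study used short-term selected lines from a stock of C57BL/6J and DBA/2J origin, bred for a large (HMACT) or small (LMACT) acute response to MA. Each mouse received saline (0 mg/kg MA) or 2 mg/kg MA and was killed 1 h later, and each array holds nucleus accumbens RNA of a 4-way pool. There were 6 arrays of HMACT saline, 6 of HMACT MA, 6 of LMACT saline and 5 of LMACT MA, which carry the numbers 2 to 6. Mean pool age ran from 77.25 to 154 days in HMACT and from 60 to 127.5 days in LMACT. The labels do not say whether the selection was replicated or how animals were divided among pools, so the p-values speak of variation among these pools only. Values are the deposited log2 signals, on which 1 unit is a doubling, and a value under 2.3 lies at the floor of the table. A level on one probe set cannot be set against that on another, so only differences are compared between genes.

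The 250 bases before the annotated start of the members' transcripts are shown because Btg2 is known as a gene that cyclic AMP and calcium switch on. A link between these sequences and the MA differences was not tested. The sequences are those of RefSeq on GRCm38.p6, at chr1:134079156-134079405 (minus strand) for Btg2, chr10:96616751-96617000 (plus strand) for Btg1 and chr11:94211204-94211453 (plus strand) for Tob1, each printed 5′ to 3′ along the transcript. Capitals mark the cyclic AMP response element TGACGTCA, or its core ACGTCA where the full element is absent.
Btg2: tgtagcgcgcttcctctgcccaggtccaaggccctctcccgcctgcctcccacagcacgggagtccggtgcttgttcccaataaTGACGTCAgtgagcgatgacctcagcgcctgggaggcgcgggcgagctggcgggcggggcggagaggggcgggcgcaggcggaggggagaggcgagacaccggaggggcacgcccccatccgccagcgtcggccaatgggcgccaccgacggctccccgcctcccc
Btg1: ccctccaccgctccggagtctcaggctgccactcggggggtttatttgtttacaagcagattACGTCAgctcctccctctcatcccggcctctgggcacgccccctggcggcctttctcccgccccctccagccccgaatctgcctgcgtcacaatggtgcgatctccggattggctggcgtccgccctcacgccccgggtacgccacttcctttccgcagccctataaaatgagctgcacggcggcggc
Tob1: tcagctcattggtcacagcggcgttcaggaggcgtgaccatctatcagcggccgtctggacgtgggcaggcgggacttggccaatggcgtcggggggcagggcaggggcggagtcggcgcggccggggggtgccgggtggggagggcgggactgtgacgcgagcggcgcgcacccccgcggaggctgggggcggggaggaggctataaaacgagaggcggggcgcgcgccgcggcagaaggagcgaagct
Searched on both strands, the full palindrome TGACGTCA was found once in the Btg2 window, starting 166 bases before the start, and in 1.55% of 32851 such windows in RefSeq. The Btg1 window held only the core ACGTCA, 188 bases before the start, and 6.47% of all windows held that core, which the full element also contains. Neither form was found in the Tob1 window or in either of the 2 windows of Btg3. The shorter CGTCA, or TGACG on the other strand, was not part of this search. As printed, the Tob1 window holds TGACG, and the Btg1 window holds a CGTCA outside its marked core. The Btg2 window had 3 GC boxes (GGGCGG, in 32.7% of windows), 2 CCAAT boxes (CCAAT, in 33.8%) and no TATAAA (in 12.4%), whereas Btg1 had TATAAA 26 bases and Tob1 47 bases before the start. The AP-1 site TGAGTCA (in 4.46% of windows) and the CArG box (in 1.47%) were not found in any of the members' windows. These are matches of letters and not measured binding sites.

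Some arrays stood apart from the rest of their group. A single axis took 60.6% of the variance left after the group means over 6831 probe sets above the floor on at least 12 arrays, and 4 arrays lay at its upper end, where their scores were 28.2 to 64.5 and those of the other 19 were -39.7 to 20.1. The 4, called here the arrays that stand apart, were arrays 3 and 5 of HMACT saline, array 3 of HMACT MA and array 4 of LMACT MA. At the lower end, HMACT saline arrays 6 and 1 scored -39.7 and -32.3, and HMACT MA arrays 6 and 5 scored -30.8 and -29.6. These lie farther out than HMACT saline array 5 (28.2), so the 4 are the upper end of the axis and not its most extreme arrays. Several results are given with and without the 4. Other values are from all 23 arrays and can also differ without the 4. The MA difference of Btg1 in HMACT, for example, was 0.032 with them and 0.155 without them. The tissue was checked with marker genes: of 11 genes of striatal projection neurons 5 were on the array, of which Penk, Tac1, Pdyn and Drd2 were above the floor on all 23 arrays and Rgs9 on none. None of 50 marker genes of 10 cell types passed limma's adjusted threshold for MA or for line. Of all probe sets, 0.0161% and 0.137% passed. None reached an unadjusted p of 0.05 for MA, against 1.25% of all probe sets. The summed levels of all 10 lists overlapped between saline and MA in both lines. After MA, oligodendrocyte sums were 12.04 to 13.11 in HMACT and 13.13 to 13.55 in LMACT. Astrocyte sums were then 13.10 to 13.41 and 13.49 to 14.07. Both were apart between the lines, while the other lists overlapped. The part of this in the Btg2 line difference was not tested. In such bulk tissue, a change in RNA per cell and a change in the number of cells of a type cannot be told apart.

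**Figure D1:**
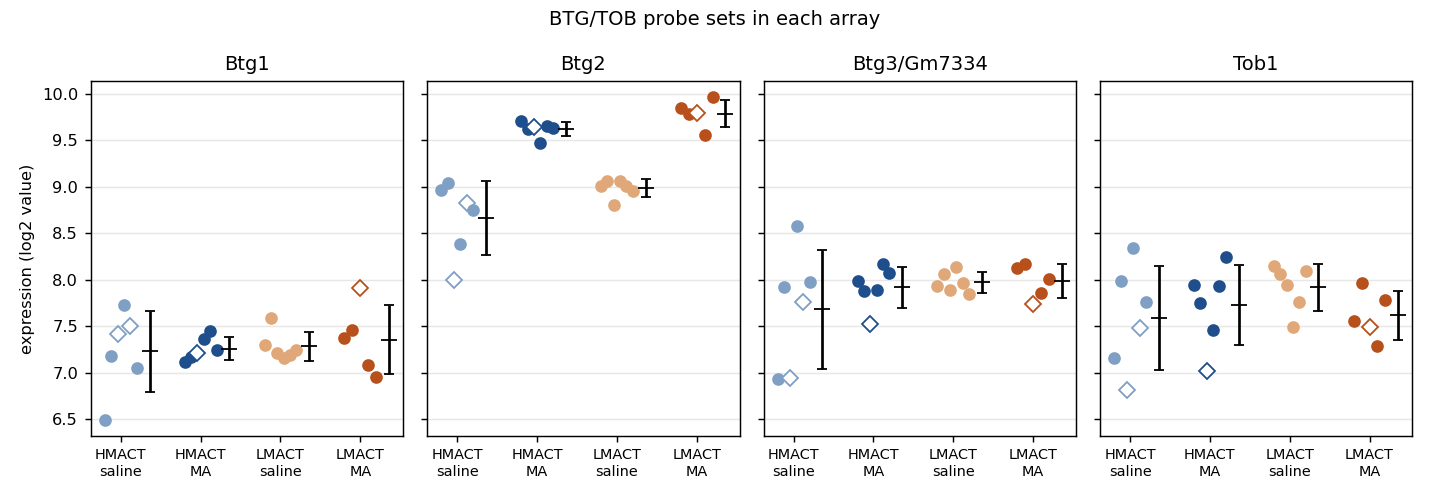
Log2 signal (vertical axis) of Btg1, Btg2, Btg3/Gm7334 and Tob1 on each of the 23 arrays, in the 4 groups of line and injection; 1 point is 1 array, open diamonds are the 4 arrays that stand apart, and black bars give the mean ± SD. For Btg2 the MA arrays lie above the saline arrays of both lines, while the groups of the other members overlap.

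Btg2 was higher on every MA array than on any saline array of either line. In HMACT the saline arrays 1 to 6 read 8.97, 9.04, 7.995, 8.39, 8.83 and 8.75, with a mean of 8.66 ± 0.40 (SD, n = 6), and the MA arrays read 9.71, 9.62, 9.64, 9.47, 9.65 and 9.64, with a mean of 9.62 ± 0.08 (SD, n = 6). In LMACT the saline arrays read 9.01, 9.06, 8.81, 9.07, 9.01 and 8.95 (8.98 ± 0.10, SD, n = 6), and the 5 MA arrays read 9.85, 9.78, 9.79, 9.56 and 9.96 (9.79 ± 0.15, SD, n = 5). Arrays 3 and 4 of HMACT saline were the lowest of all 23, and array 4 of HMACT MA was the lowest after MA. Complete separation of MA above saline in both lines was seen for 3 of the 6831 probe sets above the floor (0.0439%), those of Btg2, Atf3 and Klf4, while 0.0732% separated in HMACT and 0.6% in LMACT. Since Btg2 was picked for this pattern, its place among the 3 carries no further information.

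The MA difference of Btg2 was 0.88 log2 units (SE 0.0930), or 1.84-fold, as the mean of the lines. It was 0.96 (SE 0.128), or 1.95-fold, in HMACT and 0.80 (SE 0.135), or 1.75-fold, in LMACT, and these differed by 0.16 (SE 0.186). Without the 4 arrays that stand apart the Btg2 difference was 0.82 (SE 0.0771) in the mean of the lines, 0.83 in HMACT and 0.80 in LMACT. The difference between the 3′ and 5′ probe sets of 2 control transcripts, a sign of RNA quality, averaged 2.11 log2 units in HMACT saline (1.07 to 2.705), 2.35 in HMACT MA (2.00 to 2.80), 2.63 in LMACT saline (2.43 to 2.79) and 2.87 in LMACT MA (2.26 to 4.57). It was thus higher on average after MA and lower in HMACT, as Btg2 was, and its values overlapped between saline and MA in both lines; its part in the Btg2 differences was not tested.

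The Btg2 difference was of like size in the largest chip lot, the second lot and the rest, a lot being the production batch of the array given in the labels. The mean of the lines was 0.89 in the largest lot (15 arrays), 0.94 in the second (4 arrays) and 0.77 in the 2 remaining lots combined (4 arrays). The second lot and the combined lots hold a single array per group. In the combined lots, LMACT MA array 4 is the only array of its lot. The LMACT difference there, 0.72, is therefore between lots and not within a lot. Arrays of a line that carry the same replicate number, set against each other, gave an MA difference between 0.55 and 1.65 for Btg2, with a median of 0.82. It was positive in 11 of 11 such pairs. Since the saline and MA arrays of Btg2 do not overlap in either line, any pairing would give this count, and it adds nothing to that separation. The 1.65 came from number 3 of HMACT, whose saline array stands apart and reads 11.3 for the summed blood markers (2 of 5 genes on the array), the highest of its group; the part of this in its low Btg2 value was not tested. Without that saline array the Btg2 difference in HMACT was 0.83.

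**Figure D2:**
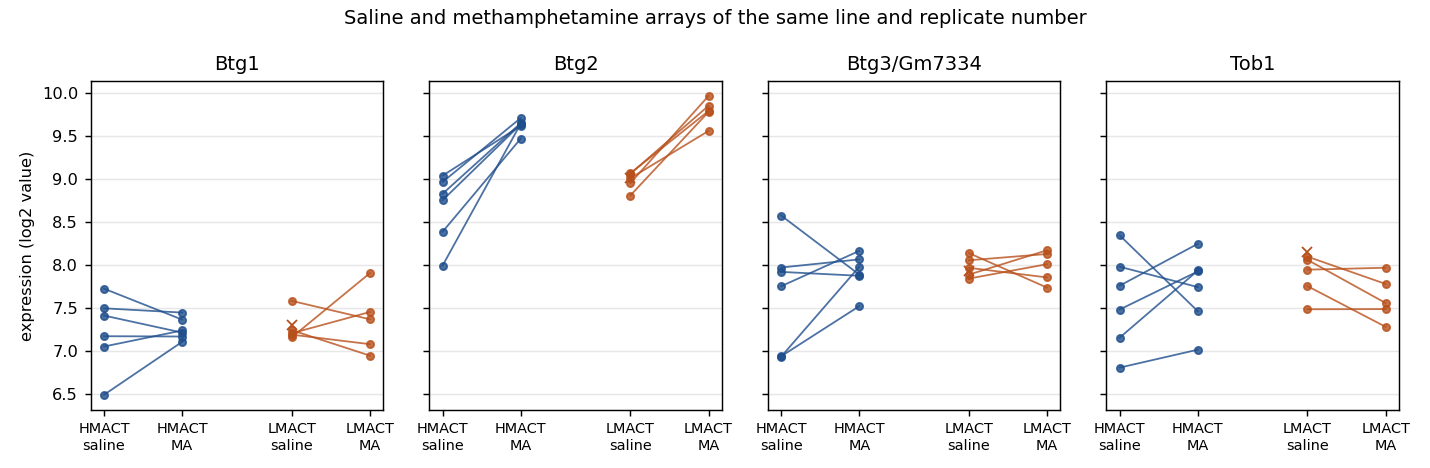
Log2 signal (vertical axis) of each member on saline and MA arrays of the same line and replicate number, joined by lines; the cross is LMACT saline array 1, which has no partner. All 11 lines rise for Btg2, as they would under any joining of groups that do not overlap. For Btg1 4 rise, for Btg3/Gm7334 7 and for Tob1 6.

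No MA difference of Btg1 passed the test. Its HMACT saline arrays ran from 6.50 to 7.73 with a median of 7.30, and its HMACT MA arrays from 7.11 to 7.45 with a median of 7.23. The LMACT saline arrays ran from 7.16 to 7.59 with a median of 7.23, and the LMACT MA arrays read 7.37, 7.46, 7.91, 7.08 and 6.95. The groups overlapped throughout, the lowest array being HMACT saline 1 and the highest LMACT MA 4, which stands apart. The mean MA difference was 0.051 (SE 0.123, 95% interval -0.21 to 0.31; limma, adjusted p = 1.0), with 0.032 in HMACT and 0.071 in LMACT. MA arrays lay above the saline mean of their own line in 3 of 6 HMACT pools and 3 of 5 LMACT pools. The means of the 4 groups, from 7.23 to 7.35, differed by less than the SD within them. RefSeq also names Btg1b and Btg1c; whether they share this probe set's signal was not tested.

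The probe set shared by Btg3 and Gm7334 gave a mean MA difference of 0.12 (SE 0.150, 95% interval -0.19 to 0.44; limma, adjusted p = 1.0). It ran from 6.94 to 8.58 (median 7.84) on HMACT saline arrays and from 7.52 to 8.17 (median 7.94) on HMACT MA arrays. On LMACT saline arrays it ran from 7.84 to 8.14 (median 7.95), and the LMACT MA arrays read 8.13, 8.17, 7.74, 7.86 and 8.01. The wide HMACT saline group enclosed all the others, with arrays 1 and 3 at 6.94 and array 4 at 8.58. In HMACT the difference was 0.23 (SE 0.207), with MA arrays above the saline mean in 5 of 6 pools, and in LMACT it was 0.011 (SE 0.217), with 3 of 5 above.

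The MA difference of Tob1 passed in neither line. On its measurable probe set the HMACT saline arrays ran from 6.81 to 8.35 (median 7.62) and the HMACT MA arrays from 7.02 to 8.25 (median 7.84). The LMACT saline arrays ran from 7.49 to 8.15 (median 8.01) and the LMACT MA arrays read 7.56, 7.97, 7.49, 7.28 and 7.78. Both pairs of groups overlapped, although in LMACT only 1 of the 5 MA arrays lay above the saline mean. The difference was 0.13 (SE 0.231) in HMACT and -0.30 (SE 0.242, 95% interval -0.81 to 0.21) in LMACT, and the interaction of 0.43 (SE 0.334, limma, adjusted p = 0.884) had an interval from -0.27 to 1.13. With array weights the LMACT difference was -0.11 and the interaction 0.070. No probe set passed for the interaction, and 2.17% had an unadjusted p under 0.05. As the mean of the lines it was -0.083 (SE 0.167, 95% interval -0.43 to 0.27; adjusted p = 1.0). The second Tob1 probe set was at the floor on all 23 arrays and gives no reading of the gene.

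Of the 3 measurable members other than Btg2, 0 passed the adjusted threshold of limma for MA in either line or in their mean. Few probe sets passed at all: 2 of 12422 in the mean effect (0.0161%; 0.00805% in each direction), 1 in HMACT (0.00805%) and 0 in LMACT, so a count of 0 among 3 does not set these genes apart. An unadjusted p under 0.05 was reached by 1.25% of probe sets in the mean effect, 1.45% in HMACT and 2.98% in LMACT, and by none of the 3 members. The upper ends of the members' intervals for the mean effect were 0.31, 0.44 and 0.27. Their residual SD within groups was 0.28 for Btg1, 0.34 for Btg3/Gm7334 and 0.37 for Tob1, against 0.21 for Btg2. Differences within these bounds could not be resolved with this number of arrays. The signs of their mean differences were the same after quantile normalization and after median centring, but each turned under another setting, to -0.042 for Btg1 with array weights, -0.041 for Btg3/Gm7334 in pools under 100 days and 0.0003 for Tob1 in the largest lot.

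**Figure D3:**
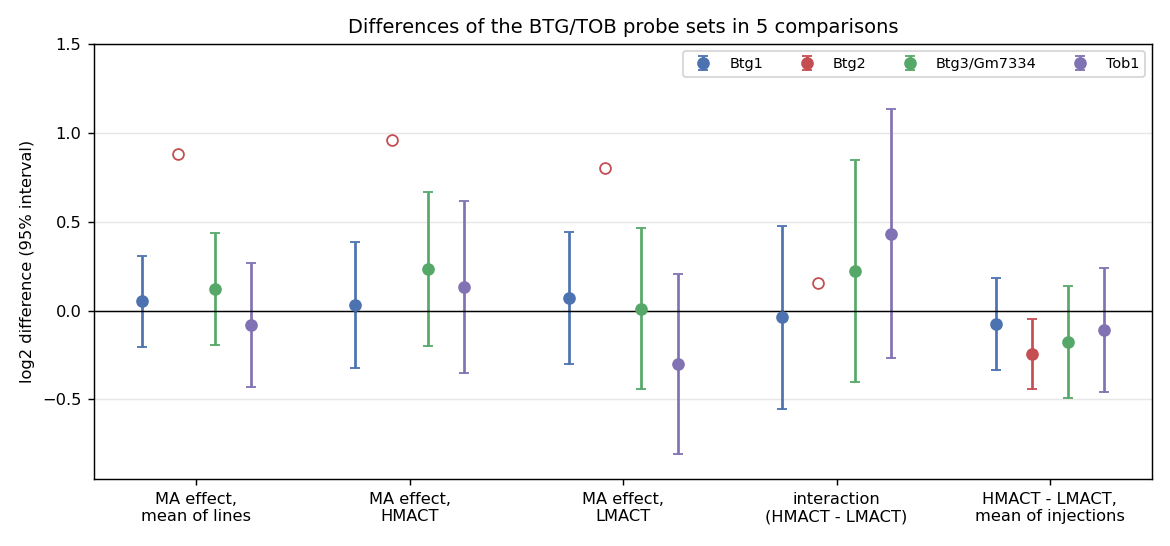
Log2 differences (vertical axis) of the 4 measurable members in 5 comparisons; filled points with bars are fitted differences with 95% intervals, and open circles are the MA differences of Btg2, shown without an interval because Btg2 was chosen for them. Btg2 lies at 0.88, 0.96 and 0.80 for MA, while every interval of the other members crosses 0.

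The choice of Btg2 did not use its difference between HMACT and LMACT. The SE of that difference rests on the same spread within groups as the MA difference, so its p is not wholly free of the choice. The Btg2 difference between HMACT and LMACT did not pass over the whole array. It was -0.24 (SE 0.0930, 95% interval -0.44 to -0.050), with limma's unadjusted p = 0.0163 and adjusted p = 0.382. HMACT arrays lay below the LMACT mean in 5 of 6 saline pools and 6 of 6 MA pools. Over all probe sets, 17 passed in this comparison (0.137%) and 10.7% had an unadjusted p under 0.05, so an unadjusted p of this size was common. With array weights the adjusted p was 0.0341, within a range of 0.0341 to 1.0 over the alternatives run, while the difference itself stayed between -0.28 and -0.18. HMACT pools were older on average, and the Btg2 difference was -0.27 with mean age as a covariate and -0.18 without the 4 arrays. The 3′ minus 5′ control signal given above was also lower in HMACT, and its part was not tested. The corresponding differences of Btg1 (-0.075), Btg3/Gm7334 (-0.18) and Tob1 (-0.11) had adjusted p of 0.879, 0.722 and 0.85, and all 3 were above 0 with mean age as a covariate, at 0.093, 0.083 and 0.058.

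In order of level, Btg2 was lowest in HMACT saline, then LMACT saline, HMACT MA and LMACT MA. The steps were 0.32, 0.64 and 0.17 log2 units. The first was smaller than the larger of the 2 SDs beside it, 0.40, and the other steps exceeded theirs, at 0.10 and 0.15. The 0.64 step lies between saline and MA, the rise for which Btg2 was picked, so its size carries no further information. For Btg1, Btg3/Gm7334 and Tob1 no step between neighbouring groups exceeded the larger SD. Within HMACT saline, the 3 pools of 100 days or more averaged 8.67 for Btg2 and the 3 younger ones 8.66, while Btg3/Gm7334 averaged 7.27 and 8.10 and Tob1 7.32 and 7.86. Arrays 1 and 3, the lowest of the group for Btg3/Gm7334, both hold older pools, and array 3 also stands apart; the part of age was not tested.

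Btg3/Gm7334 and Tob1 rose and fell together from pool to pool. After the group means were removed, their values correlated over the 23 arrays with Pearson's r = 0.786 (permutation p = 0.00048, adjusted over 6 relations 0.00288) and Spearman's rho = 0.650 (permutation p = 0.00459, adjusted 0.0275). The r was 0.726 without HMACT saline arrays 1 and 4, the farthest from the median, 0.676 without the 4 arrays that stand apart and 0.848 among the 15 arrays of the largest lot. Both probe sets also followed the array axis, with r of -0.44 and -0.53, and many probe sets share that axis. On the same measure genes outside the family correlated more strongly with them, such as Atp6v1c1 with Btg3/Gm7334 (0.934) and Ttc30b with Tob1 (0.917). The share of all probe sets with an r of this size was not counted. The permutations within groups did not take pool age into account, and its part was not tested. None of the other 5 relations passed: Btg2 correlated with Tob1 at 0.261 and with Btg3/Gm7334 at 0.156, with adjusted permutation p of 0.519 and 0.752. These were -0.24 and -0.42 without HMACT saline arrays 2 and 3, and 0.539 and 0.458 in the largest lot. Btg1 correlated with Btg2 at -0.38 (permutation p = 0.2644, adjusted 0.519), at -0.50 without the 4 arrays and at -0.55 in the largest lot. Its r with Btg3/Gm7334 was 0.385, which was 0.851 without the 4 arrays and 0.242 in the largest lot. Btg1 and Tob1 correlated at 0.246, at 0.648 without the 4 arrays and at 0.0933 in the largest lot.

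The genes whose levels over the 23 arrays were most like Btg2 were Zfp36l2 (r = 0.840), Fos (0.828), Klf4 (0.808), Egr2 (0.738) and Dusp1 (0.710). Zfp36l2 encodes a zinc finger protein that brings deadenylases to AU-rich mRNA, Fos, Klf4 and Egr2 encode transcription factors of the immediate early class, and Dusp1 encodes a phosphatase of MAP kinases. Without the 4 arrays the r values were 0.727, 0.832, 0.711, 0.564 and 0.828, and since Btg2 differed between the groups, a gene that differed likewise scores high. With group means removed, the most like were Adh5 (0.813), Ptprs (0.777), S100a14 (0.774), Reep1 (0.770) and Npnt (0.768), which fell to between 0.372 and 0.586 without the 4 arrays. These r values describe 23 arrays that share lots and array quality. For Tob1 the most like were Kcnk2 (0.876), Ttc30b (0.874) and Mapk6 (0.857), for Btg3/Gm7334 Atp6v1c1 (0.921), Sfpq (0.915) and Mtmr9 (0.901), and for Btg1 Carhsp1, Hdhd2 (both 0.751) and Ntsr2 (0.737). With group means removed, the highest were Ttc30b (0.917), Mapk6 (0.887) and Ipo5 (0.886) for Tob1, Atp6v1c1 (0.934), Sfpq (0.924) and Mtmr9 (0.894) for Btg3/Gm7334, and Snrnp40 (0.855), Gtf3c4 (0.802) and Carhsp1 (0.762) for Btg1.

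Zfp36l2, first of these over all 23 arrays but behind Fos and Dusp1 without the 4 arrays, belongs to the mRNA decay list. Its HMACT saline arrays ran from 8.34 to 10.12 and its HMACT MA arrays from 9.96 to 10.47, overlapping by 1 saline array, number 4. Its LMACT saline arrays ran from 9.43 to 9.94, and its LMACT MA arrays, at 10.33, 10.54, 10.78, 10.25 and 10.96, lay above all of them. The mean MA difference was 0.83 (SE 0.153; limma, adjusted p = 0.112) and so did not pass. It passed under 4 other settings, with adjusted p of 0.0450 after quantile normalization, 0.0175 after median centring, 0.0435 among probe sets above the floor and 0.0066 with array weights. It also passed without array 3 (0.0113) or array 4 (0.0221) of HMACT saline. It did not pass without the 4 arrays (0.0709), with 1 probe set a gene (0.0725), trend and robust moderation (0.114), age (0.126) or lot (0.225) as covariate, the replicate block (0.5475; 1.0 within line), in the largest lot (1.0) or in pools under 100 days (0.952), where the difference was 0.59. Zfp36l1, its relative, had a difference of 0.27 (SE 0.0867, adjusted p = 1.0).

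**Figure D4:**
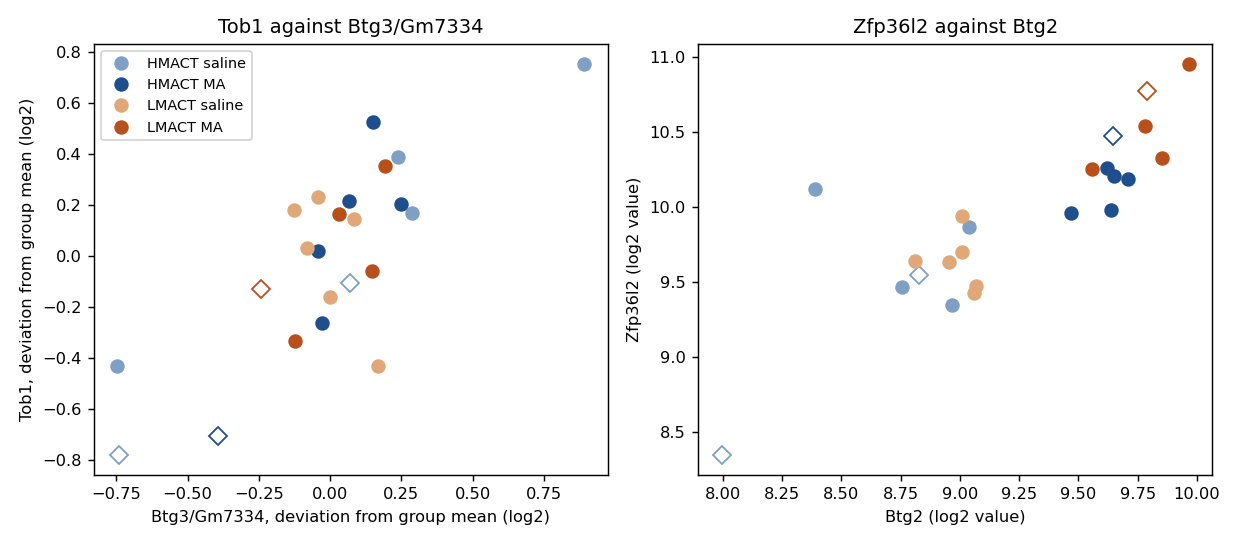
On the left, Tob1 against Btg3/Gm7334 after the mean of each group was removed, and on the right the levels of Zfp36l2 against Btg2 (all axes in log2 units); 1 point is 1 array, coloured by group, and open diamonds are the 4 arrays that stand apart. The r is 0.786 on the left and 0.840 on the right, and 0.676 and 0.727 without the 4 arrays. The 2 are not alike, since the right one includes the differences between groups and Zfp36l2 was picked for the highest r with Btg2.

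The genes through which the family acts were described by lists. Of 20 genes of the CCR4-NOT and PAN deadenylases 13 were on the array, all above the floor, and 0 of 13 passed for MA in either direction, with 1 at an unadjusted p under 0.05, against 2.15% of probe sets above the floor. Their median MA difference was -0.021 and 6 of 13 were positive, against a median of -0.0038 over 5308 genes, of which 2550 were positive. Without the 4 arrays that stand apart the deadenylase median was -0.051, with 3 of 13 positive. The smallest p values in this list were those of the poly(A)-binding protein gene Pabpc1, at -0.34 (SE 0.149, adjusted p = 1.0), and of the ubiquitin ligase gene Cnot4, at -0.12. Without LMACT MA array 5 Pabpc1 was -0.20, and without HMACT saline array 1 Cnot4 was -0.041. The decapping and mRNA decay list, with 16 of 26 genes above the floor, had a median of 0.019, with 10 positive and 2 at an unadjusted p under 0.05, and the latter were Zfp36l2 and Zfp36l1. The partners of BTG and TOB proteins, with 4 of 10 above the floor, had a median of 0.10; their smallest p values were those of the BMP pathway genes Smad5 (-0.12) and Smad4 (0.13, and 0.039 without HMACT saline array 3).

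Described regulators, p53 targets and proliferation genes were measured likewise, and 0 of them passed the adjusted threshold of limma for MA, where 0.0161% of all probe sets passed. Of 10 transcription factors described as regulators of BTG genes, 4 were above the floor, with a median of 0.18 (0.11 in HMACT and 0.44 in LMACT). Klf4 had the largest difference among them, 0.79 (SE 0.165, adjusted p = 0.203, with a range of 0.0053, with array weights, to 1.0 over the alternatives, and 0.0219 without HMACT saline array 3), and Creb1, whose protein binds the cyclic AMP response element, was above the floor on 1 array only. The p53 targets, of which 13 of 22 were above the floor, had a median of 0.091 with 9 positive and 3 at an unadjusted p under 0.05, among them the cell cycle inhibitor gene Cdkn1a at 1.00 (SE 0.331, adjusted p = 1.0) and Ddit4, an inhibitor of mTOR signalling, at 0.77 (SE 0.250, adjusted p = 1.0). In the mean effect, 2.15% of probe sets above the floor had an unadjusted p under 0.05. The p53 medians had opposite signs in the lines, 0.16 with 11 of 13 positive in HMACT and -0.043 with 6 of 13 positive in LMACT. In LMACT 4 of them had an unadjusted p under 0.05 and in HMACT 0, against 2.98% and 1.45% of all probe sets. The difference between the lines was not tested for the list. Without the 4 arrays the p53 median of the mean effect was 0.041, with 8 positive. The G1/S and proliferation genes, 15 of 27 above the floor, had a median of 0.030 and none at an unadjusted p under 0.05; the replication clamp gene Pcna stood at -0.17 (SE 0.0973), and Birc5 was at the floor on every array. Of the other family members, Btg4 was above the floor on 1 array, and Tob2 was not analysed here.

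**Figure D5:**
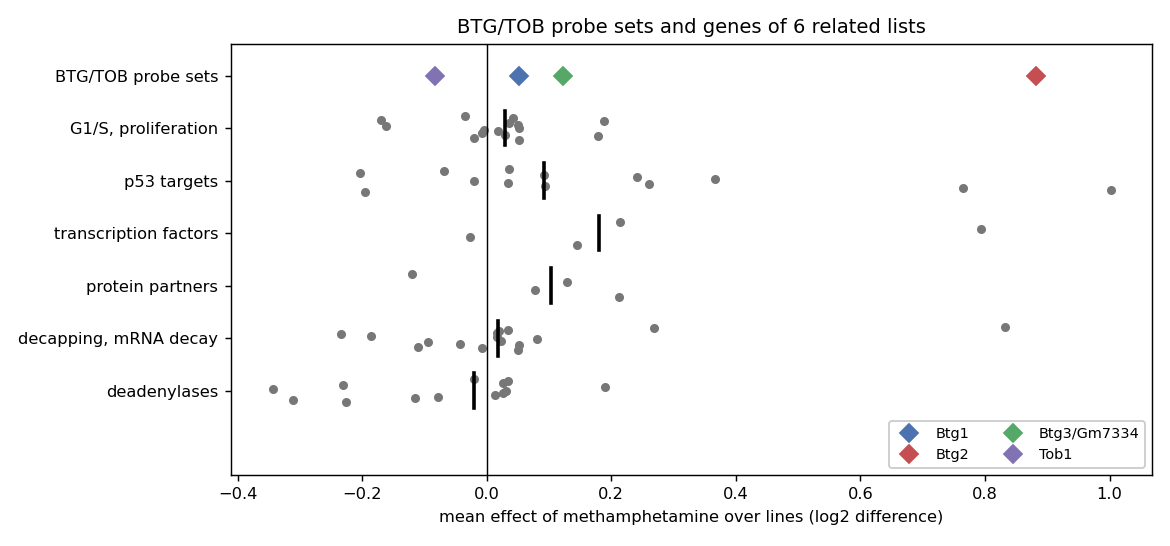
Mean MA difference (log2) of each gene above the floor in the pathway lists, 1 grey point per gene, with a black bar at the median of each list; coloured diamonds are the 4 members. The lists centre between -0.021 and 0.18, with Cdkn1a, Zfp36l2, Klf4 and Ddit4 as the highest points at 1.00, 0.83, 0.79 and 0.77.

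Between the lines, 0 genes of these lists passed in either direction. The p53 targets were lower in HMACT for 12 of 13 genes, with a median of -0.11, while 2707 of 5308 genes were higher; the count was 10 of 13 with mean age as a covariate, 10 of 13 without the 4 arrays and 9 of 13 with array weights. Of these 13, 1 had an unadjusted p under 0.05, against 19% of all probe sets above the floor. The deadenylases had a median of -0.16, with 7 of 13 lower and 4 at an unadjusted p under 0.05. The G1/S and proliferation genes had a median of 0.0079, with 8 of 15 higher and 5 at an unadjusted p under 0.05. The decay list had 2 of 16, the regulators 1 of 4 and the partners 0 of 4 at that level.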

How the data were processed

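Each of 23 arrays measured nucleus accumbens RNA of a 4-way pool. The authors deposited 1 log2 value per probe set and array; the scale was inferred from the values (2.23 to 16.4), while their normalization is not given in the sources used here. Per the submitters' processing notes R 2.7.1 was used; for which step is not said. Of the deposited log2 values, 44.1% lie under the floor of 2.3, and 4124 probe sets are at it on every array; the number of arrays limits the precision. All 253 pairs of arrays differed. Of 12488 probe sets, 66 controls were left out, 10833 are listed with 1 gene, 396 with several and 1193 with none; 10817 matched RefSeq.

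Comparisons used limma 3.58.1 in R 4.3.3 (lmFit, contrasts.fit and eBayes) with 4 group means, 5 two-sided contrasts and Benjamini-Hochberg adjustment over 12422 probe sets at 0.05; the code was tested on simulated data. The interaction is the HMACT minus the LMACT effect. Correlations used 100000 permutations within groups. Members and lists were chosen with earlier results of these data known. Named were the members' probe sets, the 5 genes (3 for Btg1, Btg3 and Tob1) with the highest r to each, and from each list up to 4 genes past the threshold or otherwise the 2 with the smallest p for MA; Btg3/Gm7334, Atf3 and single arrays were named after their values were seen. Alternatives were quantile normalization, median centring, a floor filter, array weights, trend and robust moderation, lot or age as covariate, replicate blocks, only the groups compared, the largest lot, pools under 100 days, 1 probe set a gene, and leaving out each array or the 4 that stand apart. This last one was applied to likeness after the data were seen, and so were the other settings for the lists.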

Additional observations from a re-analysis of the deposited data

Results flagged for a closer look

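Among 56 checks of a gene in a group of 5 or 6 arrays, 7 found 1 array far from the others, where chance alone flags about 1 in 20 groups. One was a member: LMACT saline array 2 read 7.59 for Btg1, above the other 5 arrays of its group. Cnot4 and Ddit4 read 5.68 and 7.26 on HMACT saline array 1, and Pcna read 7.28 on HMACT saline array 3. Zfp36l1 read 7.55 on HMACT MA array 1, Smad5 read 2.53 on HMACT MA array 2, and Pabpc1 read 9.89 on LMACT MA array 5. The Smad5 values of HMACT MA averaged 2.52 with an SD of 0.007, near the floor, so that flag marks a very small gap. Btg2, Btg3/Gm7334 and Tob1 had no such array in any group.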

How the results depend on the processing

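Over the alternatives run, the Btg2 MA difference stayed between 0.82 and 0.92 in the mean of the lines, 0.83 and 1.04 in HMACT, and 0.75 and 0.87 in LMACT. The MA differences of Btg1, Btg3/Gm7334 and Tob1 passed under none of them (limma, lowest adjusted p 0.7959), and several changed sign; the cause was not tested. In the mean of the lines Btg1 was -0.042 with array weights (-0.022 to 0.10 leaving out 1 array at a time), Btg3/Gm7334 -0.041 in pools under 100 days, and Tob1 0.0003 in the largest lot. In HMACT Btg1 was -0.017 with array weights and -0.074 in pools under 100 days (-0.11 to 0.13 leaving out 1 array), Btg3/Gm7334 -0.061 in pools under 100 days, and Tob1 -0.040 with array weights (-0.023 to 0.28 leaving out 1 array). In LMACT Btg1 was -0.067 with array weights, -0.075 in the largest lot and -0.068 without the 4 arrays that stand apart (-0.068 to 0.17 leaving out 1 array), and Btg3/Gm7334 was -0.0063 with lot as covariate and -0.022 in pools under 100 days (-0.037 to 0.072 leaving out 1 array). The interaction of Btg1 was 0.050 with array weights and 0.22 both in the largest lot and without the 4 arrays (-0.19 to 0.100 leaving out 1 array), and that of Btg3/Gm7334 was -0.094 with array weights and -0.039 in pools under 100 days. The Tob1 interaction kept its sign, from 0.070 with array weights to 0.62 in the largest lot, and its LMACT difference was -0.11 with array weights. The line difference of Btg2 was -0.24 with array weights, where it passed (adjusted p = 0.0341). Under array weights, age as covariate and pools under 100 days, the line difference was 0.040, 0.093 and 0.018 for Btg1 and 0.043, 0.058 and 0.14 for Tob1, which was 0.056 without the 4 arrays; for Btg3/Gm7334 it was 0.083 with age as covariate and 0.085 in pools under 100 days.

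Counts of probe sets past the threshold moved more. For the mean MA effect (2) they were 7 with array weights, 0 in the largest lot, 1 in pools under 100 days and 5 without the 4 arrays, and 1 to 4 leaving out 1 array (4 without HMACT saline 3, 1 without LMACT MA 2). For HMACT (1) they were 2 with array weights, 0 with only the groups compared, 0 in the largest lot, 2 in pools under 100 days and 3 without the 4 arrays, and 1 to 2 leaving out 1 array (2 without HMACT saline 6). For LMACT (0) they were 50 with array weights and 1 each with median centring, the floor filter, only the groups compared and without the 4 arrays, and 0 to 2 leaving out 1 array (2 without HMACT saline 3). For the line difference (17) they were 30 with quantile normalization, 39 with the floor filter, 705 with array weights, 2 with age as covariate, 1 in the largest lot, 0 in pools under 100 days and 61 without the 4 arrays, and 7 to 55 leaving out 1 array (55 without LMACT MA 4, and 7 to 11 without HMACT MA 3 or 4, HMACT saline 5, LMACT saline 1 or 2, or LMACT MA 3 or 6). The filter tests fewer probe sets, and the settings of the largest lot and of pools under 100 days use fewer arrays.

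Same-numbered arrays of a line did not all deviate together (r from -0.605 to 0.871 over 11 pairs), so the number was not taken as a pairing. With a replicate block the Btg2 MA difference was 0.90, and 0.88 with the block within line; the mean MA effect then had 1 probe set past the threshold under either block, and HMACT had 0 with the block within line. With the replicate block Btg3/Gm7334 was -0.038 in LMACT and the Btg1 interaction 0.019, both reversed and neither past the threshold.

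Of the fits planned, the setting of 1 probe set a gene gives no value for the Btg3/Gm7334 probe set, which has several genes, and the block within line gives none for the line difference. Signal over the floor sets what could be measured: the second Tob1 probe set, Btg4, Creb1 and Birc5 have no usable level.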
